A study of Mus musculus with 4 samples.

Results

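Miat, Malat1, Neat1, Snhg11 and Leng8 make up a group of 5 transcripts, of 21937 genes listed, that are known for staying in the nucleus or for keeping introns in their mature form. They were taken by symbol from a single deposited comparison of RNA from mouse sympathetic ganglia. They were chosen by measured values, as abundant transcripts that were lower in the second value column, so that difference is the reason they are described here and not a finding about them. All 5 symbols had a row.

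RNA was sequenced from superior cervical ganglia pooled with stellate ganglia, taken at postnatal day 60 from mice given tamoxifen for 10 days. The series has 4 samples with 1 pool per genotype. In the Hand2 line the control was Hand2flox/+ and the mutant Hand2flox/del, and in the Gata3 line the control was Gata3flox/+ and the mutant Gata3flox/flox. All carried DbhCreERT2, a Cre that tamoxifen activates, placed under the Dbh (dopamine beta-hydroxylase) promoter, so recombination is aimed at noradrenergic neurons and not at glia or other cells of the ganglion. The Hand2 alleles were on B6.129/SVJ, the Gata3 alleles on B6.129/SV129 (written B6.126/SV129 for the mutant) and the Cre on C57BL/6. The pools held 16 ganglia from 4 mice, or, for the Gata3 mutant, 32 ganglia from 8 mice, in which the series' design text describes rudiments whose remaining cells kept Gata3.

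Of its 2 value columns, the one headed as control is side A here, and the one it was set against is side B. The table does not say which line it compares, or whether lines were merged, so side B was given no genotype. The values are whole numbers treated as normalised values with no stated unit. Their sum was 19343986 for side A and 19135221 for side B. Each side is 1 column, so there is no replicate error, and "higher" and "lower" describe these columns only. Log2 ratios compare B with A after adding 1 to both values, so those of low genes come out too small. Folds are plain ratios. Over the 12043 genes whose mean value reached 50 the median log2 ratio was 0.0026, with an SD of 0.31 between genes, and 48.8% of genes were lower on side B.

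Long noncoding RNAs that stay in the nucleus can act as scaffolds. Malat1 gathers in nuclear speckles, which are stores of splicing factors, and the long form of Neat1 builds paraspeckles, bodies that hold RNA-binding proteins and edited RNAs. Miat, also called Gomafu, is a nuclear RNA of particular neurons that binds splicing factors. Detained introns are introns left in otherwise finished, polyadenylated transcripts. Such transcripts wait in the nucleus until they are spliced or destroyed, and many of them encode splicing factors and their kinases.

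Sequence elements known for 3 of the members are shown first, since they set these RNAs apart from ordinary mRNA. Miat carries tandem copies of the branch-point-like heptamer TACTAAC, through which it binds the splicing factor encoded by Sf1. GENCODE M21 transcript Miat-205, of 9163 bases, holds 6 copies, the first starting at base 4941 and the last at base 5623. The stretches below are bases 5031 to 5082 and bases 5579 to 5639, on the strand of the RNA, with the heptamer in capitals.
Miat bases 5031 to 5082: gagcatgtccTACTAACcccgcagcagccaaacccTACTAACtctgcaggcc
Miat bases 5579 to 5639: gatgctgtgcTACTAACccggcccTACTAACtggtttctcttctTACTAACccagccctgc
At least 6 copies occur in 3 of 18930 GENCODE long noncoding transcripts, of which Miat accounts for 2, and at least 1 copy in 3.78%.

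Malat1 and the long form of Neat1 end without a poly(A) tail. Their ends are instead closed by a triple helix of U-rich and A-rich stretches, left after a tRNA-like RNA has been cut away. The windows below are bases 6603 to 6691 of Malat1-201 and bases 20677 to 20771 of Neat1-201, from GENCODE M21, with the U-rich parts TTTCTTTT and TTTTGCTTT and the A-rich part AAAGCAAAA in capitals.
Malat1 3' element: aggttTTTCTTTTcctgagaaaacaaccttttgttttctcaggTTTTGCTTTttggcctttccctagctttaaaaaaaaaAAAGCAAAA
Neat1 3' element: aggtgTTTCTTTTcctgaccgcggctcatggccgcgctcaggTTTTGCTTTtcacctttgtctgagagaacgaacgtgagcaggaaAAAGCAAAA
The parts come in the same order with similar spacing, 30 and 28 bases apart in Malat1 and 29 and 35 bases apart in Neat1. With gaps of up to 100 bases this order is found in 2 of the 18930 long noncoding transcripts, Malat1-201 and Neat1-201. Miat-205, Snhg11-201 and the Leng8 transcript Leng8-201 do not hold TTTTGCTTT.

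Each of the 5 transcripts was lower on side B. Miat, a long noncoding RNA of chromosome 5, was at 2497 on side A against 688 on side B, a 3.63-fold difference (log2 ratio -1.86). In bulk RNA, fewer cells of a type and less RNA per cell cannot be told apart. Snhg11, a host of small nucleolar RNAs on chromosome 2, had values of 11843 and 3670, 3.23-fold lower (log2 ratio -1.69). RefSeq types it as a long noncoding RNA and places 2 small nucleolar RNA genes inside it, neither of which has a row of its own.

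Leng8, the protein-coding member, lies on chromosome 7 and had values of 2230 and 801, 2.78-fold lower (log2 ratio -1.48). It encodes a protein with a SAC3 domain, a fold shared with the mRNA export scaffold encoded by Mcm3ap. Malat1 had values of 1575 and 764, 2.06-fold lower (log2 ratio -1.04). Neat1, its neighbour on chromosome 19, had values of 3427 and 1721, 1.99-fold lower (log2 ratio -0.99). Malat1 therefore stood just inside a 2-fold line on the log2 scale and Neat1 just outside it.

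**Figure D1:**
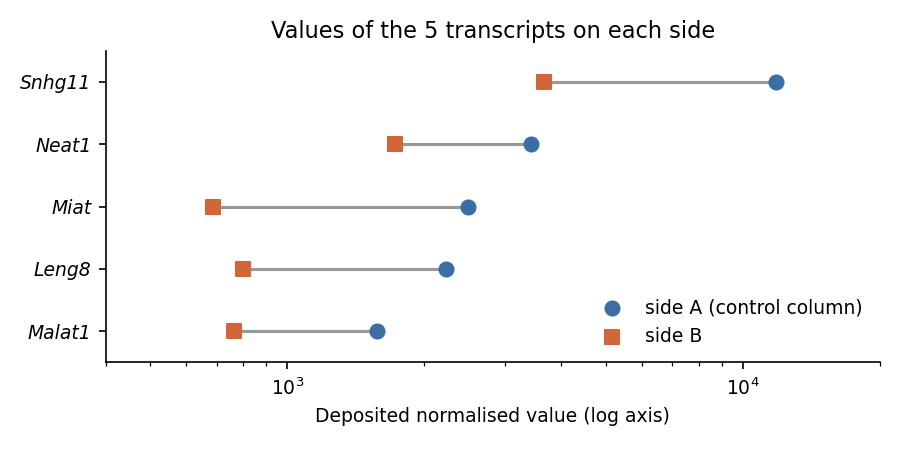
Deposited normalised values of the 5 transcripts on a log axis, with side A as circles and side B as squares, 1 column per side and no error. Side B lies left of side A for each of them, with the widest gap for Miat (2497 and 688) and the narrowest for Neat1 (3427 and 1721).

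Other transcripts also differed between the sides, and their part in the members' values was not tested. The ganglion markers were present on both sides, with Th (tyrosine hydroxylase, first step of catecholamine synthesis) at 47123 and 44280 and Dbh at 102922 and 89194. The 10 noradrenergic markers had a summed value of 360134 for side A and 313067 for side B, and none was at 0. The 10 glial markers summed to 43932 and 48437, the 10 macrophage markers to 2443 and 3318, the 6 endothelial markers to 1235 and 1340 and the 7 fibroblast markers to 25005 and 23276, with none at 0. The 11 skeletal muscle markers summed to 1917 and 75, with all 9 that had a mean value of at least 50 more than 2-fold lower and Mb listed at 0 on side B. Of 11 sensory neuron markers, 6 had a mean value of at least 50 and 4 of these were 2-fold lower, among them Slc17a6 at 128 and 7, while Mrgprd was listed at 0 on both sides. On side A the Y-linked genes stood at 1206 for Ddx3y, 587 for Eif2s3y, 483 for Uty and 282 for Kdm5d, and all 4 are listed at 0 on side B, so the sex of the animals and the side cannot be told apart.

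By the count rule of a 2-fold difference at a mean value of at least 50, 4 of the 5 were lower. Over all 12043 genes 54, or 0.448%, were 2-fold lower and 4 genes, or 0.0332%, were 2-fold higher. Since the members were chosen for this difference, nothing is read from their count. The adjusted p that the authors' deposited table holds was 4.91e-25 for Miat, 2.11e-35 for Snhg11, 1.84e-15 for Leng8, 3.33e-06 for Malat1 and 1.44e-08 for Neat1. The authors' deposited table lists 54 genes, 0.318% of those with a p-value, as lower with an adjusted p under 0.05 and 8 genes, 0.0471%, as higher. The sources used here do not say how many libraries stand behind those p-values.

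The bounds of the group follow from its choice and test nothing. Of 3868 genes whose mean value reached that of Malat1, 1169.5, the genes at or under the log2 ratio of Neat1, -0.99, were 8, the 5 members with Meg3, Col5a3 and Hand2. Summed, the members made up 0.112% of side A and 0.0399% of side B.

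The sizes of the differences were not equal within the group. Malat1 and Neat1 kept nearly the same proportion to each other, with a value of Malat1 that was 0.460 of Neat1 on side A and 0.444 on side B. The value of Snhg11 was 5.31 times that of Leng8 on side A and 4.58 times on side B. The value of Miat was 1.59 times that of Malat1 on side A and 0.901 times on side B. No error can be put on any of these proportions.

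Levels of different genes were compared per length. Per kb of merged GENCODE M21 exons, the level on side A was 1390 for Snhg11, 349 for Leng8, 269 for Miat, 226 for Malat1 and 165 for Neat1. On side B the level per kb was 431 for Snhg11, 125 for Leng8, 109 for Malat1, 82.9 for Neat1 and 74.0 for Miat. Ranks by level per kb were taken among 11923 genes with a length. On side A Snhg11 ranked 623rd, Leng8 2852nd, Miat 3605th, Malat1 4131st and Neat1 5188th. On side B Snhg11 ranked 2338th, Leng8 6087th, Malat1 6603rd, Neat1 7560th and Miat 7953rd. The place of Neat1 depends on its form. Over the 3004 bases of the short GENCODE transcript its level per kb would be 1141 on side A and 573 on side B, in place of 165 and 82.9 over the 20771 bases of the long form, which would put Neat1 above Miat, Leng8 and Malat1 on both sides and above Snhg11 on side B. The sources used here do not say which exons the authors counted.

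**Figure D2:**
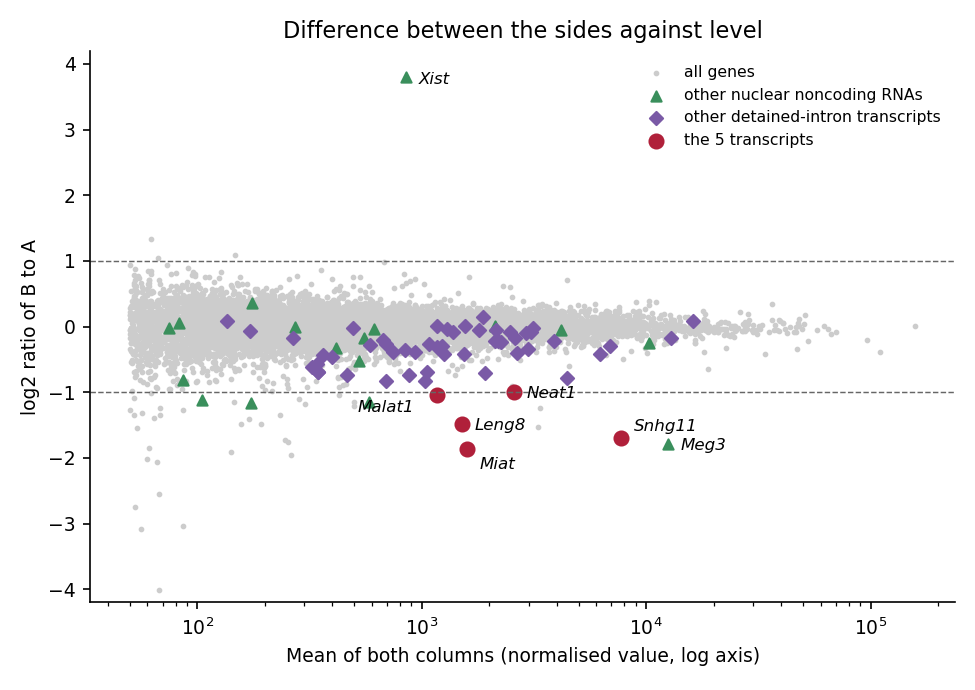
Log2 ratio of B to A against the mean of both columns (log axis) for 12043 genes with a mean of 50 or more, with the 5 transcripts, the other nuclear noncoding RNAs and the other detained-intron transcripts marked, and dashed lines at 2-fold. The 5 transcripts and Meg3 lie close to or under the lower line at mean values over 1000, and 11 genes below -4.2 are outside the plotted range.

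Genes next to the members had ratios in both directions. The 3 nearest listed genes on each side of each member gave 24 genes that are not members, and 13 of these had a mean value of at least 50. Of the 13, 9 were lower and 4 higher, where 48.8% of all genes were lower. The median log2 ratio of the 13 was -0.06, with a range from -0.36 to 0.31. None was 1.5-fold lower, where 1.47% of all genes were 1.5-fold lower and 0.681% were 1.5-fold higher.

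The chromosome 19 locus holds both Malat1 and Neat1. Ltbp3, whose protein binds latent TGF-beta, lies on the Malat1 side and had values of 612 and 611, a log2 ratio of -0.0024. Frmd8, on the Neat1 side, had values of 765 and 719, a log2 ratio of -0.09. The authors' deposited table holds an adjusted p of 1 for Ltbp3 and Frmd8. Malat1 and Neat1 were chosen as lower, so no contrast with these neighbours is drawn.

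At the Leng8 locus, Ttyh1, which encodes a membrane protein of the tweety family, had values of 3205 and 3987, a log2 ratio of 0.31. Leng9, on the other side, had values of 103 and 96, a log2 ratio of -0.10. The noncoding D030047H15Rik, the nearest listed gene upstream of Leng8, had values of only 29 and 9, under the minimum mean value (authors' deposited table, adjusted p 1). Next to Snhg11, Ralgapb, a gene of Ral GTPase control, had values of 2780 and 2667, a log2 ratio of -0.06. The host gene Snhg17 (listed as 9430008C03Rik), on the other side, had values of 84 and 65, a log2 ratio of -0.36. Near Miat, Tpst2, a tyrosylprotein sulfotransferase gene, had values of 327 and 322, a log2 ratio of -0.02.

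Promoter sequences were compared for letters that the members share. RefSeq windows from 250 bases before to 50 bases after the start (build GRCm38.p6) were matched for 4 members. The letters searched, on both strands, were TGACG, the end of the cAMP response element, CATCTG, an E-box form bound by Hand2 with its partners, GATAA, the core of GATA sites, and GGGCGG, the core of GC boxes. Neither CATCTG nor GATAA was present in any of the windows of the 4 members. In all 32851 windows of the table they occur in 17.2% and 25.4%. TGACG occurs 3 times in the Malat1 window and 2 times in the first Leng8 window, and in none of the other windows, those of Miat, Snhg11 and the second start of Leng8. At least 1 copy occurs in 20.8% of all windows, at least 2 in 5.01% and at least 3 in 1.03%. GGGCGG, found in 35.7% of all windows, occurs 1 time in the Miat window, 2 times in the first Leng8 window and 1 time in the second. The windows that hold TGACG are shown with TGACG and its reverse complement CGTCA in capitals.
Malat1, chr19:5802623-5802922, minus strand: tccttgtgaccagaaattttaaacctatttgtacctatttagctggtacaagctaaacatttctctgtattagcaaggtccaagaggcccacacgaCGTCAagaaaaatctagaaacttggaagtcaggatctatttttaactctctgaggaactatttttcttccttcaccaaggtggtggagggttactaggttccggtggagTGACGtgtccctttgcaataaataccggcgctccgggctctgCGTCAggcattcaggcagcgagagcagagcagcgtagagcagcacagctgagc
Leng8, chr7:4136806-4137105, plus strand: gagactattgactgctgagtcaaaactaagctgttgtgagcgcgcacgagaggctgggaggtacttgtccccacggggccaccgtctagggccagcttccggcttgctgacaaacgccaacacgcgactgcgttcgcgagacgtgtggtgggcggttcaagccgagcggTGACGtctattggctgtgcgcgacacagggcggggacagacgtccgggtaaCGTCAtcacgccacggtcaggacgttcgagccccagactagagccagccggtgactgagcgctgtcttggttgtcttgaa
A match of letters is a description of these windows, and no binding was measured.

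Most RNAs listed as other nuclear noncoding RNAs were lower on side B, in a list drawn up with earlier results of these data known. Where these RNAs lie in the cell was not measured. Of 17 rows with a mean value of at least 50, 13 were lower and 4 higher, 76.5% lower where 48.8% of all genes were, with a median log2 ratio of -0.18. At 2-fold 4 were lower, 23.5% where 0.448% of all genes were, and 1 was higher. The authors' deposited table gives 2 of the 17 an adjusted p under 0.05 as lower and 1 as higher. By that rule 0.318% of all genes with a p-value were lower and 0.0471% higher. Without the 3 genes on the X chromosome, 11 of 14 were lower, with a median log2 ratio of -0.12.

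The imprinted cluster of chromosome 12, whose noncoding RNAs come from the maternal copy, gave unequal values. Meg3, its first gene, had values of 19461 and 5631, 3.46-fold lower (authors' deposited table, adjusted p 2.59e-42). Rian, which follows it and carries small nucleolar RNAs, had values of 11164 and 9396, a log2 ratio of -0.25. Mirg, a host of microRNAs further along, had values of 145 and 66, a log2 ratio of -1.12 (authors' deposited table, adjusted p 1). Meg3 and Mirg were thus more than 2-fold lower, and Rian was not.

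Firre (listed as 6720401G13Rik), an X-linked RNA that organises nuclear contacts, had values of 800 and 360, 2.22-fold lower (authors' deposited table, adjusted p 0.000159). Ipw, an imprinted RNA of the Prader-Willi region, had values of 240 and 107 (authors' deposited table, adjusted p 0.288). Tug1, at 2117 and 2126, and Peg13, at 4268 and 4114, had nearly equal values on both sides. Xist, which coats the inactive X chromosome, stood at 114 and 1595 and was the single gene of the list that was 2-fold higher.

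Noncoding genes as a class had a median near 0 and larger shares of both low and high ratios than protein-coding genes. Of 112 genes that RefSeq types as long noncoding RNA, with a mean value of at least 50, 58 were lower, and the median log2 ratio was -0.02. Without the members 54 of 108 were lower, with a median of -0.0026. The median over 11793 protein-coding genes was 0.0029. At 2-fold 8 of the 112 were lower and 1 higher, or 5 of 108 lower, 4.63%, without the members. Of the protein-coding genes 46, or 0.390%, were 2-fold lower. The 5 noncoding genes were Meg3, Firre, Ipw, Mirg and A330023F24Rik, a host of microRNAs of the miR-29 family. A330023F24Rik had values of 416 and 107, a log2 ratio of -1.95 (authors' deposited table, adjusted p 8.41e-07), and was named after its values were seen. At 1.5-fold, without the members, 7 of the 108 were lower and 6 higher. Of the 11793 protein-coding genes 161 were 1.5-fold lower and 74 higher. Among the 10 long noncoding RNAs with a mean value of at least 1000, 5 were 1.5-fold lower, namely Meg3 and 4 members. The members were chosen as abundant and lower, so nothing is read from that count. Without them 1 of 6 was 1.5-fold lower and 3 were lower at all, with a median log2 ratio of -0.02. At that mean 17 of 4320 protein-coding genes were 1.5-fold lower. The 5 noncoding RNAs that were neither members nor Meg3 lay between log2 ratios of -0.25 and 0.23.

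Other hosts of small nucleolar RNAs had ratios in both directions. Of 12 rows with a mean value of at least 50, 7 were lower and 5 higher, 58.3% lower where 48.8% of all genes were. Their median log2 ratio was -0.14, and none was 2-fold lower, where 0.448% of all genes were. These counts are near the shares over all genes, and nothing is read from them. Gas5 had values of 497 and 350, a log2 ratio of -0.50, and Snhg6 had 71 and 124, a log2 ratio of 0.80. The Snhg14 locus has 2 rows, at 619 and 429 (D7Ertd715e) and at 621 and 608 (C230091D08Rik), so its values depend on the stretch counted. Rian, Snhg14 and Zfas1 are in both noncoding lists, and by the authors' deposited table no host gene passed an adjusted p of 0.05.

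Most other transcripts known for detained introns were lower on side B. Leng8 was chosen for its low ratio, so no contrast with it is drawn. All 50 genes of the list had a mean value of at least 50, and 45 were lower and 5 higher, 90% where 48.8% of all genes were lower. Their median log2 ratio was -0.28. This list was drawn up with earlier results of these data known. None was 2-fold lower, 10 were 1.5-fold lower, or 20% where 1.47% of all genes were, and none was 1.5-fold higher. By the adjusted p of the authors' deposited table, 6 of the 50 passed 0.05, all 6 lower. Of all genes with a p-value, 0.318% passed as lower and 0.0471% as higher.

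Clk1, a kinase that phosphorylates SR splicing factors, had values of 882 and 498, a log2 ratio of -0.82 (authors' deposited table, adjusted p 0.0252). Srrm2, a scaffold protein of nuclear speckles, had values of 5634 and 3275, a log2 ratio of -0.78 (authors' deposited table, adjusted p 4.15e-06). Pnisr (listed as Sfrs18), which encodes an SR-related protein, had values of 1326 and 748 (authors' deposited table, adjusted p 0.00286). Rsrp1 (listed as D4Wsu53e), another arginine and serine-rich protein gene, had values of 2373 and 1447 (authors' deposited table, adjusted p 0.00208). Ttc14 had values of 1103 and 658 and Wsb1, a ubiquitin ligase adaptor gene, had 1310 and 812, and the authors' deposited table holds adjusted p-values of 0.0313 and 0.0402.

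Other kinase and cyclin genes of the list did not pass that threshold. Clk4 had values of 429 and 264, a log2 ratio of -0.70, while Clk2 had 282 and 251, a log2 ratio of -0.17. The cyclin genes Ccnl2 and Ccnl1 had 581 and 350 and 393 and 255, log2 ratios of -0.73 and -0.62. At the other end, Tra2b, a splicing activator gene, had 1788 and 1970, a log2 ratio of 0.14. Intron reads are not separated in the table, so these are totals per gene.

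**Figure D3:**
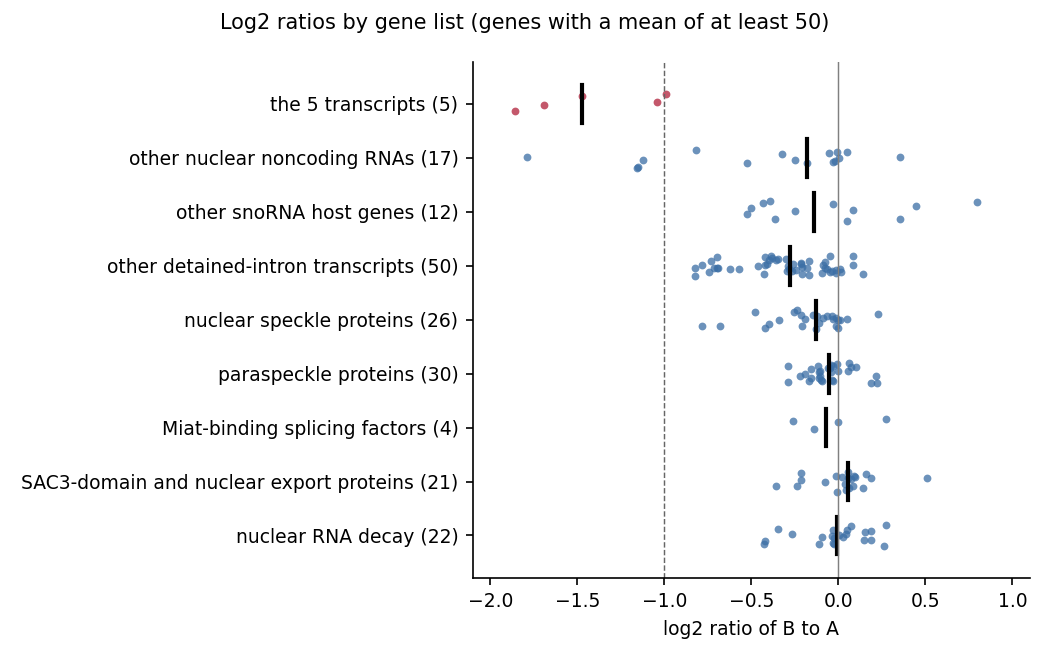
Log2 ratio of B to A for each gene of 9 lists whose mean value reached 50 (points, number of genes in parentheses) with the median of each list as a black bar; Xist, at 3.79, is outside the plotted range. The median was -1.48 for the 5 transcripts, -0.28 for the detained-intron list and within 0.18 of 0 for the others.

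Most genes for proteins of the bodies that these RNAs occupy were lower on side B, but the median of the paraspeckle list was close to that of all genes. No contrast with the members, which were chosen as lower, is drawn, and the lists were drawn up with earlier results of these data known. The nuclear speckle list had 22 of 26 genes lower, 84.6% where 48.8% of all genes were, and a median log2 ratio of -0.13. In it 2 genes were 1.5-fold lower, Srrm2 and Snrnp70, or 7.69% where 1.47% of all genes were. Snrnp70, a protein of the U1 small nuclear ribonucleoprotein, had values of 1619 and 1009 (authors' deposited table, adjusted p 0.0203). Of the 26 genes 7 are also in the detained-intron list, and the other 19 had a median of -0.11. Paraspeckle protein genes had 23 of 30 lower, or 76.7%, with a median of -0.05 and a range from -0.29 to 0.22. Sfpq and Nono, whose proteins are needed for paraspeckles to form on Neat1, had values of 2287 and 2219 and 3767 and 3677. None of the 30 was 1.5-fold lower, which is near the share of 1.47% over all genes.

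The splicing factors reported to bind Miat had ratios in both directions. Celf3 had values of 5279 and 4400, a log2 ratio of -0.26, and Sf1 had 2038 and 1852, a log2 ratio of -0.14. Srsf1 had 3041 and 3042. Qk, whose RNA-binding protein is prominent in glia, had 2725 and 3293, a log2 ratio of 0.27. By the authors' deposited table none of the 4 passed an adjusted p of 0.05.

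Genes of nuclear export and decay had medians close to that of all genes. The list of SAC3-domain and export proteins had 7 of 21 genes lower, 33.3% where 48.8% of all genes were, and a median log2 ratio of 0.05. Mcm3ap, which shares the SAC3 domain with Leng8, had values of 913 and 788, a log2 ratio of -0.21. Nxf1, the main mRNA export receptor and itself known for a retained intron, had 945 and 738, a log2 ratio of -0.36. Of the 14 higher genes of this list, Nxt1 had the largest ratio, with values of 96 and 137, a log2 ratio of 0.51. The nuclear RNA decay list had 11 of 22 genes lower, or 50%, and a median of -0.01. That median turned to 0.0056 with columns divided by their sums and 0.0014 with upper quartiles. The lowest ratios of the decay list included Zfc3h1, a subunit of the complex that delivers polyadenylated nuclear RNA to the exosome, at 1394 and 1097. They also included Pabpn1, a nuclear poly(A)-binding protein, at 1433 and 1069. The log2 ratios of Zfc3h1 and Pabpn1 were -0.35 and -0.42. Of the 11 higher genes of the decay list, C1d had the largest ratio, with values of 1328 and 1604, a log2 ratio of 0.27. The helicase gene Mtrex (listed as Skiv2l2) had 1747 and 1719. No gene of either list was 1.5-fold lower, where 1.47% of all genes were, and by the authors' deposited table none passed an adjusted p of 0.05.

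Annotated intron retention was compared with the ratios over all genes. GENCODE M21 gives Leng8 3 retained-intron transcripts among 10, Snhg11 2 among 5, and Miat, Malat1 and Neat1 none. Of the 50 genes of the detained-intron list 43 have at least 1. Across 11923 genes with an annotation, the median log2 ratio was 0.01 for the 4826 genes with no such transcript and -0.05 for the 927 genes with 5 or more, and the share of lower genes was 46.5% and 64.6%. The 2652 genes with 1 such transcript went the other way, with a median of 0.02 and 43.4% lower. Without the members and the detained-intron list the medians were 0.01 for no such transcript, 0.02 for 1 and -0.05 for 5 or more. Genes with more such transcripts also had more transcripts in all, at a median of 3 and 12, and longer merged exons. Among genes with 10 or more transcripts the median was -0.03 both for the 1851 with a retained-intron transcript and for the 224 without one. The share of lower genes was 59.8% and 59.4%.

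**Figure D4:**
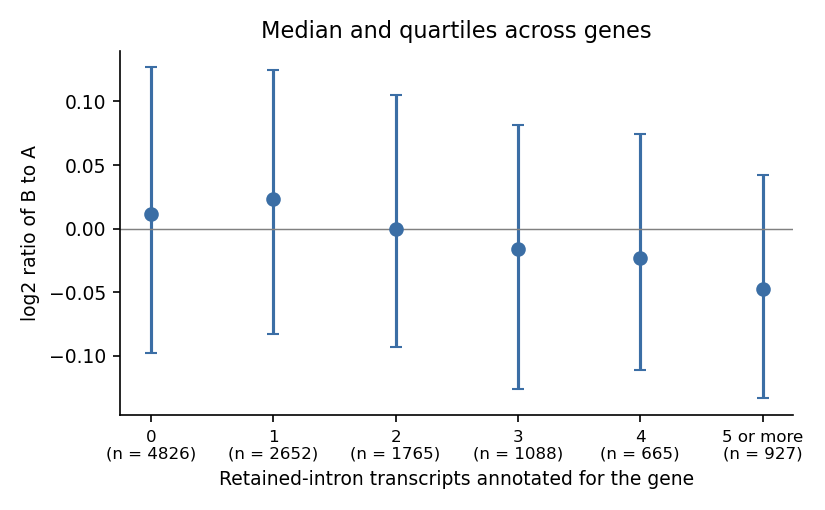
Median (points) and quartiles (bars) of the log2 ratio of B to A across genes whose mean value reached 50, by the number of retained-intron transcripts that GENCODE M21 gives them, with the number of genes under each. The medians lie between 0.02 and -0.05, well inside the quartiles of each class.

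Genes most like the members were taken as the 10 lowest log2 ratios among other genes whose mean value reached 1000, a likeness that rests on 2 columns. They were Meg3, Col5a3, Hand2, Kcnab1, Enc1, Pnisr, Areg, Srrm2, Pcdh17 and Rsrp1. Their log2 ratios ran from -1.79 for Meg3 to -0.71 for Rsrp1. Col5a3, a fibrillar collagen chain gene, had values of 4870 and 1696, 2.87-fold lower. Hand2, a transcription factor of the noradrenergic lineage and the target in the Hand2 line, had 4749 and 2001, 2.37-fold lower. Gata3, the target of the other line, had 1105 and 1050.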

How the data were processed

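RNA of pooled superior cervical and stellate ganglia was sequenced in 4 samples. Reads had gone through TopHat2 (2.0.8), HTSeq (0.5.4p1), SAMtools (0.1.19) and DESeq, on build mm9, per the submitters' processing notes. The sources used here do not give the annotation or strand setting, so reads of antisense partners cannot be told apart.

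Per the file headers, the deposited value columns are means of a comparison in DESeq style, and each was taken as a normalised score. A further column, headed as mutant, is in all 21937 genes the mean of the 2 used and was left out. Fold changes and p-values are the authors', as deposited. The authors' log2 column was left out for its spreadsheet errors. The sample behind each column is not known.

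Log2 ratios used a pseudocount of 1, and genes were counted at a mean value of at least 50 and 2-fold or 1.5-fold, with no test. Alternatives changed the scaling, pseudocount, minimum and fold. Python 3.11.15 with pandas 2.3.3 was used, and the count rule was tested on simulated data. Depth, and so counting error, is unknown. Symbols were matched to RefSeq (GRCm38.p6) directly or by synonym, 21670 of 21937, and 261 of 270 list entries had a row. Promoters came from RefSeq and transcripts from GENCODE M21. The members and lists were chosen with earlier results of these data known. Named genes were all members, list genes past the 2-fold rule or an adjusted p of 0.05, otherwise up to 4 with large ratios, the 10 most like genes, the 3 nearest genes on each side, and Hand2, Gata3, Th and Dbh. Other genes were named after their values were seen, namely Clk2, Tra2b, Tug1, Peg13, Rian, Sfpq, Nono, Mtrex, the X-linked and Y-linked genes and those of the Snhg14 locus. Some genes under the rule are not reported here.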

Additional observations from a re-analysis of the deposited data

How the results depend on the processing

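Choice of the members fixed their direction, so alternatives bear only on size. Over 4 of them the log2 ratios ran from -1.86 to -1.84 for Miat, -1.69 to -1.67 for Snhg11, -1.48 to -1.46 for Leng8, -1.04 to -1.03 for Malat1 and -0.99 to -0.98 for Neat1, with Neat1 short of 2-fold in each. Scaling by sums or upper quartiles moved the median of all genes to 0.018 and 0.014. Of 230 alternative values 213 moved by no more than 0.1 in log2 or 1.5 times in a count, and no called value changed sign. The median of the nuclear RNA decay list, with no called gene, changed sign from -0.01 to 0.0056 by sums and 0.0014 by upper quartiles. At a minimum mean of 20, 110 genes were 2-fold lower, 22 higher, and 1 snoRNA host was lower. At a minimum of 1000 these were 8 lower and 0 higher genes, with 1 nuclear noncoding RNA lower and Rian, at -0.25, the single host left. At 1.5-fold 177 genes were lower and 82 higher, with 10 detained-intron and 2 speckle genes lower. No paired analysis was possible because each genotype has 1 pool and no column is matched to a sample. For the same reason no library could be left out. Depth is unknown, and differences between near values cannot be separated from error.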

Other observations

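Rows of small RNAs that lie inside longer genes had low values. At a mean value of at least 5, a limit set after the values were seen, 19 microRNA and small nucleolar RNA genes lay within a longer listed gene, 14 lower on side B, 2 equal and 3 higher, with a median log2 ratio of -0.68. Of all 2631 genes with a mean value from 5 to under 50, 50% were lower, with a median log2 ratio of -0.03. Most of the small RNAs had values under 20, where counting error is large. Mir3064, inside Ddx5, a helicase gene of the detained-intron list, had values of 87 and 45, while Ddx5 had 13662 and 12076. AF357359, a small nucleolar RNA inside Rian, had 182 and 132, and Rian had 11164 and 9396. Both touch an annotated exon of the longer gene in GENCODE M21, and RNA of this library cannot separate the small RNA from the longer transcript. H19, an imprinted noncoding RNA under the minimum mean value, had values of 72 and 11.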
